A study of Homo sapiens with 6 samples.

Results

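The genes described here encode enzymes of glycolysis and of the pentose phosphate pathway, the PFKFB enzymes that set the pace of phosphofructokinase, the lactate dehydrogenases, and subunits and kinases of pyruvate dehydrogenase. They were chosen by name and function. Of 33 genes listed, 31 had at least 1 probe set annotated with that gene alone, among 18132 genes in all. The lactate carriers SLC16A1 and SLC16A3 were not analysed here. Glycolysis splits glucose into pyruvate and yields ATP on the way. The pentose phosphate pathway leaves it after the first phosphorylation and makes NADPH and ribose phosphate, and its non-oxidative branch returns carbon to glycolysis. Tumour cells commonly run glycolysis at a high rate even with oxygen present, and several of its enzymes exist as isoforms encoded by separate genes.

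Expression was measured on 6 Affymetrix arrays, 1 sample per array: 3 samples of TPC-1 cells infected with lentivirus expressing a control shRNA and 3 infected with lentivirus expressing an shRNA against SHCBP1. All were grown in RPMI1640 medium with serum. TPC-1 is an established papillary thyroid carcinoma line, whereas the text on RNA extraction names DLD1, a line from a colorectal carcinoma. The deposited log2 values are centred, with the median of the 6 arrays at 0 for each probe set, so they show how arrays differ and hold no expression level. For that reason neither cell line could be checked against thyroid or colorectal markers. A gene is given as the mean of its probe sets, and differences are SHCBP1 shRNA minus control shRNA. Errors are the moderated standard errors (SE) of limma with n = 3 arrays per group, and adjusted p-values are its Benjamini-Hochberg values over all 18132 genes, called at 0.05. For the spike-in, hybridisation, GAPDH and ACTB control signals the SE is not moderated and comes from the pooled spread within groups. The labels speak of independent samples but name no separate cultures, so the p-values rest on a spread among arrays that may be technical. Because the labels name 1 shRNA per group, effects of losing SHCBP1 and other effects of that shRNA cannot be told apart.

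SHCBP1, the targeted gene, read 0.72, 0.76 and 0.71 in replicates 1 to 3 of the control shRNA and -0.95, -0.76 and -0.72 in those of the SHCBP1 shRNA, a difference of -1.54 ± 0.06 (SE; adjusted p = 1.87e-06). The poly-A spike-in controls, transcripts added before labelling, moved with the groups: the mean of their 24 probe sets was 0.43 ± 0.04 log2 (SE) higher in the SHCBP1 shRNA arrays. Scaling to them lowers every gene by that amount, and values with that scaling stand beside the results it turns. Rises and falls below are thus measured against the rest of the genes on the same arrays. The hybridisation controls, not used for scaling, moved the same way by less. The mean of their 18 probe sets was 0.08 ± 0.02 log2 (SE) higher in the SHCBP1 shRNA arrays. It ran from -0.06 to -0.02 in the control arrays and from 0.02 to 0.07 in the SHCBP1 shRNA arrays. The 3′ to 5′ signal of GAPDH, a sign of RNA integrity, differed by -0.01 ± 0.02 log2 (SE) between groups. That of ACTB differed by -0.08 ± 0.02 (SE), with 0.04 to 0.05 in the control arrays and -0.06 to 0.00 in the SHCBP1 shRNA arrays, which did not overlap. Its part in the results was not tested.

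Most genes of glycolysis and the pentose phosphate pathway were lower in the SHCBP1 shRNA arrays. Of the 31 genes, 18 fell, 7 rose and 6 did not pass the test. The 25 called are 80.6% of the genes, beside 41.0% of all genes called. By direction, falls made up 58.1% against 19.0% over all genes, while rises made up 22.6%, near the 22.0% over all genes. With spike-in scaling the counts were 26 lower and 0 higher, with 89.7% of all genes called lower. Their median difference was -0.16 log2, and that of all genes was 0.02. At a size of at least 0.5 log2, 5 of the 31 (16.1%) were called, against 8.21% of all genes. The 5 were HK2, RPE, PFKP, PGLS and TKT, all lower. None reached 2-fold on the deposited scale, while with spike-in scaling these 5 did (-1.29 to -1.01), against 3.73% of all genes called at least 2-fold lower. The groups did not overlap in 27 genes, or 87.1%, against 50.0% of all genes.

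**Figure D1:**
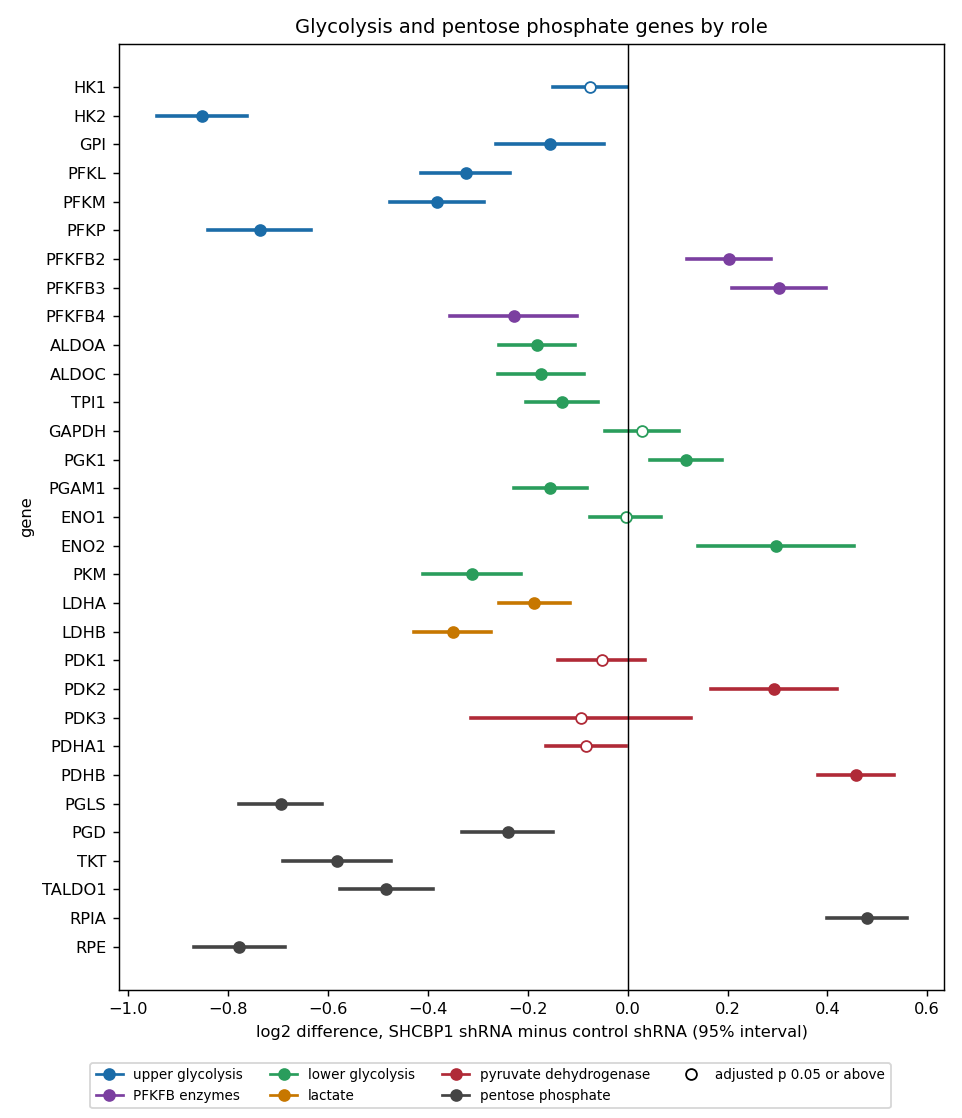
Difference in log2 value between the SHCBP1 shRNA and control shRNA arrays for 31 genes, with 95% intervals, coloured by role (3 arrays per group; open points did not pass limma's test). Most points lie left of 0, led by HK2 at -0.85 and RPE at -0.78, and RPIA (0.48) and PDHB (0.46) lie furthest right. Scaling to the spike-in controls would move every point left by 0.43, past 0 for all that rose except PDHB and RPIA.

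To show the sequence context of the strongest members in either direction, the 250 bases before the start are printed for HK2 and RPE, which fell furthest, and for RPIA and PDHB, which rose furthest. They come from RefSeq (GRCh38.p14) and are written 5′ to 3′ on the strand of the gene. HK2 lies at chr2:74833877-74834126 (plus strand), the first of its 2 listed starts, RPE at chr2:210002388-210002637 (plus), RPIA at chr2:88691423-88691672 (plus) and PDHB at chr3:58433833-58434082 (minus). Capitals mark ACGTG or GCGTG on either strand, the core letters of the hypoxia response element, through which low oxygen is known to induce many glycolysis genes.
HK2: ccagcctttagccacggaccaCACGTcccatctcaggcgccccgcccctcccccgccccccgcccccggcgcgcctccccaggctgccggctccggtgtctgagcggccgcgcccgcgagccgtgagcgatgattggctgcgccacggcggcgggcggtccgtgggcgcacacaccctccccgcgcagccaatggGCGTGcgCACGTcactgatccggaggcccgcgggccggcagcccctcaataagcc
RPE: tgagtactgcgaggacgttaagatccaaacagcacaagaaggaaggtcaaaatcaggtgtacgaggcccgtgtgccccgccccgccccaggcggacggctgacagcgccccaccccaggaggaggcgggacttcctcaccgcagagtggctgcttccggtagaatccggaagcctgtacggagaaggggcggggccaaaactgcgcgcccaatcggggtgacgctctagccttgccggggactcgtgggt
RPIA: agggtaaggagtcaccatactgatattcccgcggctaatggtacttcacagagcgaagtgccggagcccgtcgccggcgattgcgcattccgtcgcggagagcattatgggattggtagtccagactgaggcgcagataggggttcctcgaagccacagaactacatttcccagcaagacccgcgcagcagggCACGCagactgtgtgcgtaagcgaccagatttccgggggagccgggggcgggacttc
PDHB: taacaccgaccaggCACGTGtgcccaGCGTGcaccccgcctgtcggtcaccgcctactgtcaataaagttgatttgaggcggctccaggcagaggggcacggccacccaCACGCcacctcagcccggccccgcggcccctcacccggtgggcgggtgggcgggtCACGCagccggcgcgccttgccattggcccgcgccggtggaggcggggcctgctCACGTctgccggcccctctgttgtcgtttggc

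The printed stretches hold 3 matches in HK2, 0 in RPE, 1 in RPIA and 6 in PDHB, so genes that rose and genes that fell both carry them. At the second listed start of HK2, not printed, the stretch holds 6 matches, with CACGTG at 2 places. The E-box CACGTG in PDHB gives 2 of its 6 matches, since it holds ACGTG on both strands. At least 1 match stood in 29 of 54 listed promoters of the genes analysed (53.7%), against 43.2% of 35116 promoters in the table. By gene, 11 of the 18 that fell had a match at some start, as did 6 of the 6 that rose and have a listed promoter (PFKFB2 has none listed) and 6 of the 6 that were not called. CACGTG itself stood in 8 of the 54 promoters (14.8%), against 6.34% of all. Promoters of one gene can overlap and genes with more starts have more chances, so these shares are descriptions of letters only. No share by gene was computed over all genes, so the counts by direction have no background to be read against.

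Upper glycolysis, from glucose to fructose bisphosphate, was lower: 5 of 6 genes fell, and HK1 did not pass the test. Over all genes 19.0% were called lower. HK2, the hexokinase isoform commonly raised in tumours, fell furthest of all 31 genes. Its values were 0.41, 0.48 and 0.52 in the control arrays against -0.36, -0.40 and -0.39 in the SHCBP1 shRNA arrays, a 1.81-fold fall (log2 difference -0.85 ± 0.04, SE; adjusted p = 3.32e-06). Both of its probe sets were lower, but by unequal amounts, -0.48 and -1.23. HK1, the widely expressed hexokinase, had values of 0.04, 0.01 and 0.05 against -0.04, -0.05 and -0.03. Its groups did not overlap, yet its difference of -0.08 ± 0.03 (SE) missed the threshold (adjusted p = 0.0965). With spike-in scaling HK1 was called lower (-0.51, adjusted p = 1.02e-05).

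Phosphofructokinase, which commits sugar to glycolysis, has 3 isoform genes, and all fell. PFKP, the platelet-type isoform, had values of 0.34, 0.31 and 0.37 in the control arrays against -0.44, -0.31 and -0.43 in the SHCBP1 shRNA arrays, a 1.67-fold fall (-0.74 ± 0.04, SE; adjusted p = 1.13e-05). PFKM, the muscle type, read 0.17, 0.16 and 0.26 against -0.20, -0.20 and -0.16 (-0.38 ± 0.04, SE). PFKL, the liver type, read 0.19, 0.11 and 0.21 against -0.16, -0.13 and -0.17 (-0.32 ± 0.04, SE). The fall of PFKP was thus the steepest of the 3, and groups of each isoform stood apart. GPI, which turns glucose phosphate into fructose phosphate, read 0.11, 0.02 and 0.16 against -0.02, -0.10 and -0.06. Its fall of -0.16 ± 0.05 (SE; adjusted p = 0.0289) rests on 1 probe set. It missed the threshold when either control replicate 1 or 3, or SHCBP1 shRNA replicate 2 or 3, was left out, with adjusted p = 0.0798, 0.0864, 0.0918 and 0.0675.

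The PFKFB enzymes make and break the sugar bisphosphate that activates phosphofructokinase, and their genes moved in opposite directions. PFKFB3, the isoform with the highest ratio of kinase to phosphatase activity, read -0.13, -0.15 and -0.25 in the control arrays against 0.13, 0.13 and 0.13 in the SHCBP1 shRNA arrays, a rise of 0.30 ± 0.04 log2 (SE; adjusted p = 0.00062). That mean covers 4 unlike probe sets, from -0.02 to 0.76. Leaving out the probe sets named _s_at or _x_at, suffixes that mark probes matching several transcripts or genes, 1 remains, and its difference was -0.02 (adjusted p = 0.809). PFKFB2 read -0.15, -0.08 and -0.09 against 0.12, 0.10 and 0.07, a rise of 0.20 ± 0.04 (SE; adjusted p = 0.00258), and 4 of its 6 probe sets were called higher. PFKFB4 read 0.06, 0.18 and 0.06 against -0.03, -0.18 and -0.17, a fall of 0.23 ± 0.05 log2 (SE; adjusted p = 0.0115), with 1 of 4 probe sets called. With spike-in scaling PFKFB2 was called lower at -0.23 (adjusted p = 0.00392), and PFKFB3 at -0.13 was not called (adjusted p = 0.0746).

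Lower glycolysis, from fructose bisphosphate to pyruvate, was mixed and its changes were small. Beside 19.0% of all genes lower and 22.0% higher, 5 of its 9 genes fell, 2 rose and 2 were not called. PKM, the pyruvate kinase of most tissues and tumours, fell furthest. It read 0.23, 0.11 and 0.14 in the control arrays against -0.12, -0.15 and -0.19 in the SHCBP1 shRNA arrays (-0.31 ± 0.04, SE; adjusted p = 0.000649). All 6 of its probe sets were called lower, from -0.49 to -0.22. PKM encodes alternative splice forms, which these gene means do not separate.

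The aldolase genes, whose enzyme cleaves fructose bisphosphate, fell by nearly the same amount as gene means. ALDOA read 0.11, 0.07 and 0.10 against -0.07, -0.09 and -0.11 (-0.18 ± 0.03, SE), and ALDOC read 0.03, 0.11 and 0.07 against -0.13, -0.08 and -0.11 (-0.17 ± 0.04, SE). PGAM1, a phosphoglycerate mutase, read 0.06, 0.06 and 0.07 against -0.07, -0.09 and -0.11 (-0.15 ± 0.03, SE). TPI1, triose phosphate isomerase, read 0.06, 0.06 and 0.08 against -0.05, -0.06 and -0.08 (-0.13 ± 0.03, SE). Adjusted p-values of these 4 genes ran from 0.00278 for ALDOA to 0.0108 for TPI1. Their groups stood apart although each difference was under 0.2 log2, and every probe set of ALDOA, PGAM1 and TPI1 was called lower. The mean of ALDOC joins 3 probe sets called lower, from -0.31 to -0.22, with 2 not called, at -0.04 and -0.03. Its match with ALDOA thus holds for the mean and not for each probe set. All probe sets of ALDOA, TPI1 and PGAM1 end in _s_at or _x_at, so near-identical copies could contribute to their signal.

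Other steps of lower glycolysis went the other way or hardly moved. PGK1, the first ATP-yielding enzyme of the pathway, read -0.07, -0.06 and -0.05 in the control arrays against 0.07, 0.06 and 0.05 in the SHCBP1 shRNA arrays (0.12 ± 0.03, SE; adjusted p = 0.0181). Of its 9 probe sets, 5 were called higher. The call was lost without control replicate 1, SHCBP1 shRNA replicate 1 or SHCBP1 shRNA replicate 2 (adjusted p = 0.0617, 0.0589 and 0.0518), and with the replicate number as a block (adjusted p = 0.0507). It was also lost with the _s_at and _x_at probe sets left out (0.09, adjusted p = 0.0973). ENO2, the enolase isoform named for neurons, read -0.09, -0.16 and -0.09 against 0.33, 0.13 and 0.09 (0.30 ± 0.07, SE; adjusted p = 0.00881), from 1 probe set. SHCBP1 shRNA replicate 1 was the high array there, and without it the rise was 0.22. With spike-in scaling PGK1 was called lower at -0.32 (adjusted p = 0.000303), and ENO2 at -0.14 was not called (adjusted p = 0.11).

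ENO1, the main enolase, and GAPDH, a common reference gene for expression, gave flat values. ENO1 read 0.01, 0.00 and 0.01 against 0.01, -0.01 and -0.01, a difference of 0.00 ± 0.03 (SE; 95% interval -0.08 to 0.07). GAPDH read 0.00, -0.03 and -0.01 against 0.00, 0.03 and 0.03, a difference of 0.03 ± 0.03 (SE; 95% interval -0.04 to 0.10). Neither passed the test (adjusted p = 0.933 and 0.533), and both intervals exclude a fall of the size seen for ALDOA or LDHA on this scale. GAPDH rests on 1 probe set, and the 3 control probe sets for it, left out of the gene mean, differed by 0.04, 0.05 and 0.04. Every probe set in the means of ENO1 and GAPDH ends in _x_at, so near-identical copies could contribute here too. A probe set shared by ENO1 and TMEM11, outside the mean, was 0.22 higher (limma's adjusted p = 0.00643 over all probe sets). With spike-in scaling ENO1 and GAPDH were at -0.44 and -0.41, and both were called lower (adjusted p = 3.65e-05 and 4.37e-05).

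**Figure D2:**
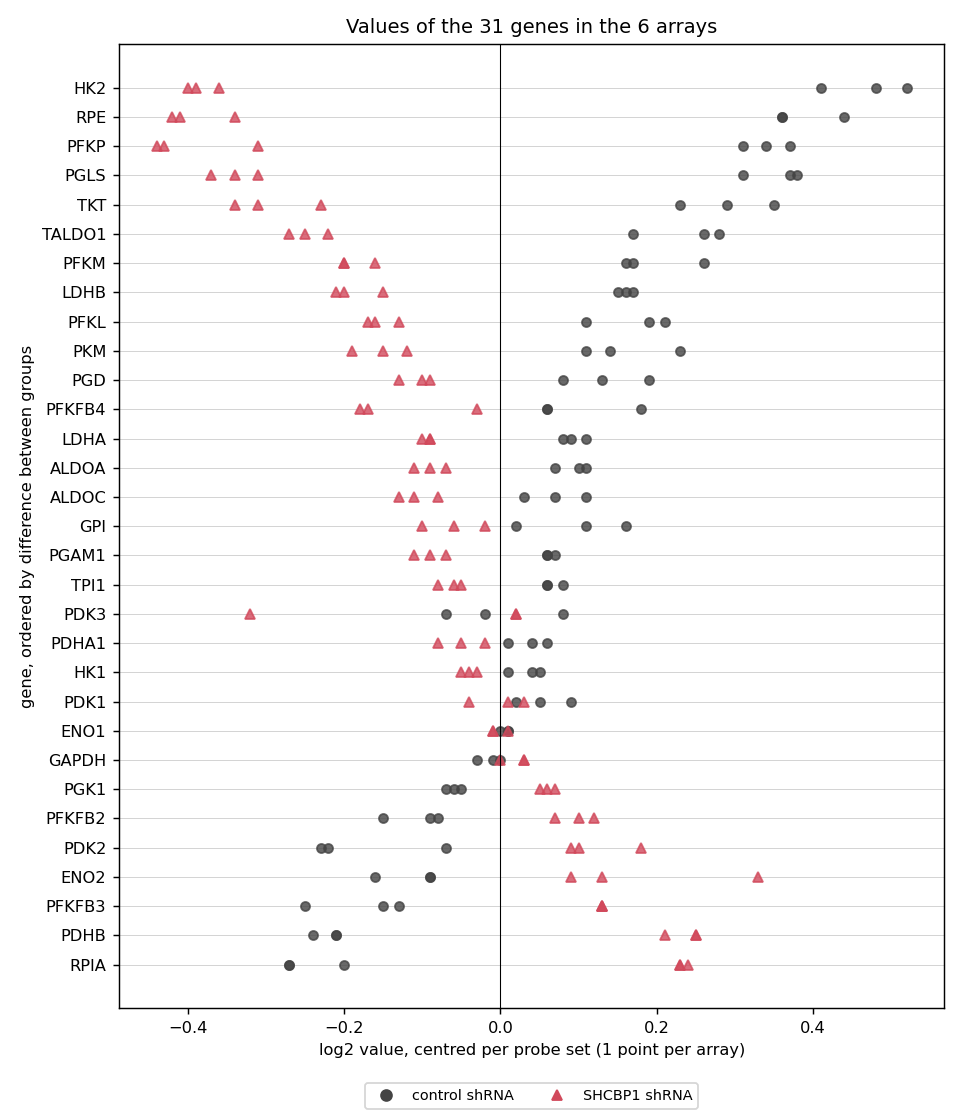
Centred log2 value of each of the 31 genes in each of the 6 arrays, ordered by the difference between groups (grey circles control shRNA, red triangles SHCBP1 shRNA; rounded to 2 decimals). The groups stand apart in 27 genes and overlap in PDK3, PDK1, ENO1 and GAPDH, and the lone red point at -0.32 for PDK3 is SHCBP1 shRNA replicate 1. The order holds under any scaling of whole arrays, but its zero does not: spike-in scaling lowers every difference by 0.43.

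Both lactate dehydrogenase genes fell. LDHA, whose subunit favours lactate formation, read 0.08, 0.11 and 0.09 in the control arrays against -0.09, -0.09 and -0.10 in the SHCBP1 shRNA arrays (-0.19 ± 0.03, SE; adjusted p = 0.00173). All 4 of its probe sets were lower, from -0.24 to -0.16, and each ends in _s_at or _x_at. LDHB, whose subunit favours the return to pyruvate, read 0.16, 0.17 and 0.15 against -0.20, -0.15 and -0.21 (-0.35 ± 0.03, SE; adjusted p = 0.0001). The fall of LDHB, from 1 probe set, was the larger.

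At the entry to mitochondria, 2 of 5 genes rose, 0 fell and 3 were not called, near the 41.0% called over all genes. PDHB, the beta subunit of the first enzyme of the pyruvate dehydrogenase complex, read -0.21, -0.24 and -0.21 in the control arrays against 0.25, 0.25 and 0.21 in the SHCBP1 shRNA arrays, a 1.37-fold rise (0.46 ± 0.03, SE; adjusted p = 2.57e-05) from 1 probe set. PDHA1, the alpha subunit of the same enzyme, read 0.04, 0.01 and 0.06 against -0.02, -0.05 and -0.08. Its difference of -0.08 ± 0.03 (SE) did not pass (adjusted p = 0.0908), and its 5 probe sets ran from -0.45 to 0.07 with 1 called lower. With spike-in scaling PDHB was at 0.02 and no longer called (adjusted p = 0.688), and PDHA1 was called lower (-0.52, adjusted p = 1.12e-05).

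The PDK genes encode kinases that switch pyruvate dehydrogenase off. PDK2 read -0.23, -0.07 and -0.22 against 0.18, 0.09 and 0.10, a rise of 0.29 ± 0.05 (SE; adjusted p = 0.00319). Its 3 probe sets were all above 0, from 0.17 to 0.51. With spike-in scaling PDK2 was at -0.14 and not called (adjusted p = 0.109). PDK1, a known target of the hypoxia response, read 0.09, 0.02 and 0.05 against -0.04, 0.01 and 0.03, and its groups overlapped (-0.05 ± 0.04, SE; adjusted p = 0.321). PDK3 read -0.02, -0.07 and 0.08 against -0.32, 0.02 and 0.02 (-0.09 ± 0.09, SE; adjusted p = 0.491). Without SHCBP1 shRNA replicate 1, its low array, the difference of PDK3 was 0.02. With spike-in scaling PDK1 and PDK3 were called lower, at -0.49 and -0.53 (adjusted p = 1.22e-05 and 0.000103).

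The pentose phosphate genes had the lowest median of the 6 roles, -0.53 log2: 5 of 6 fell and 1 rose. Of all genes, 19.0% fell and 22.0% rose. In the oxidative branch, which makes NADPH, PGLS encodes the lactonase and PGD the phosphogluconate dehydrogenase. PGLS read 0.37, 0.31 and 0.38 in the control arrays against -0.31, -0.34 and -0.37 in the SHCBP1 shRNA arrays, a 1.62-fold fall (-0.69 ± 0.04, SE; adjusted p = 5.61e-06) from 1 probe set. PGD read 0.19, 0.08 and 0.13 against -0.10, -0.09 and -0.13 (-0.24 ± 0.04, SE; adjusted p = 0.00177), and both of its probe sets were called lower. The 95% intervals of PGLS (-0.78 to -0.61) and PGD (-0.33 to -0.15) lay apart, and neither gene's groups overlapped.

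In the non-oxidative branch, the enzymes that act on ribulose phosphate moved apart. RPE, the epimerase that leads towards glycolysis, read 0.36, 0.36 and 0.44 against -0.41, -0.42 and -0.34, a 1.71-fold fall (-0.78 ± 0.04, SE; adjusted p = 5.42e-06). All 5 of its probe sets were called lower, from -0.998 to -0.377. RPIA, the isomerase that leads to ribose phosphate for nucleotides, read -0.27, -0.27 and -0.20 against 0.23, 0.23 and 0.24, a 1.39-fold rise (0.48 ± 0.03, SE; adjusted p = 2.57e-05). Both of its probe sets were called higher, at 0.45 and 0.51. With spike-in scaling RPIA was at 0.05 and not called (adjusted p = 0.415).

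TKT and TALDO1, the transketolase and transaldolase that pass carbon units between sugars, both fell. TKT read 0.29, 0.23 and 0.35 against -0.31, -0.34 and -0.23, a 1.50-fold fall (-0.58 ± 0.05, SE; adjusted p = 4.26e-05). Its 3 probe sets were all called lower, from -1.04 to -0.33. With their median in place of the mean the difference was -0.38 (adjusted p = 0.000268), under the size of 0.5. TALDO1 read 0.26, 0.17 and 0.28 against -0.27, -0.25 and -0.22, a 1.40-fold fall (-0.48 ± 0.04, SE; adjusted p = 5.15e-05). That mean joins 1 probe set at -0.98 with 1 at 0.02, so the size of its fall depends on which is read.

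**Figure D3:**
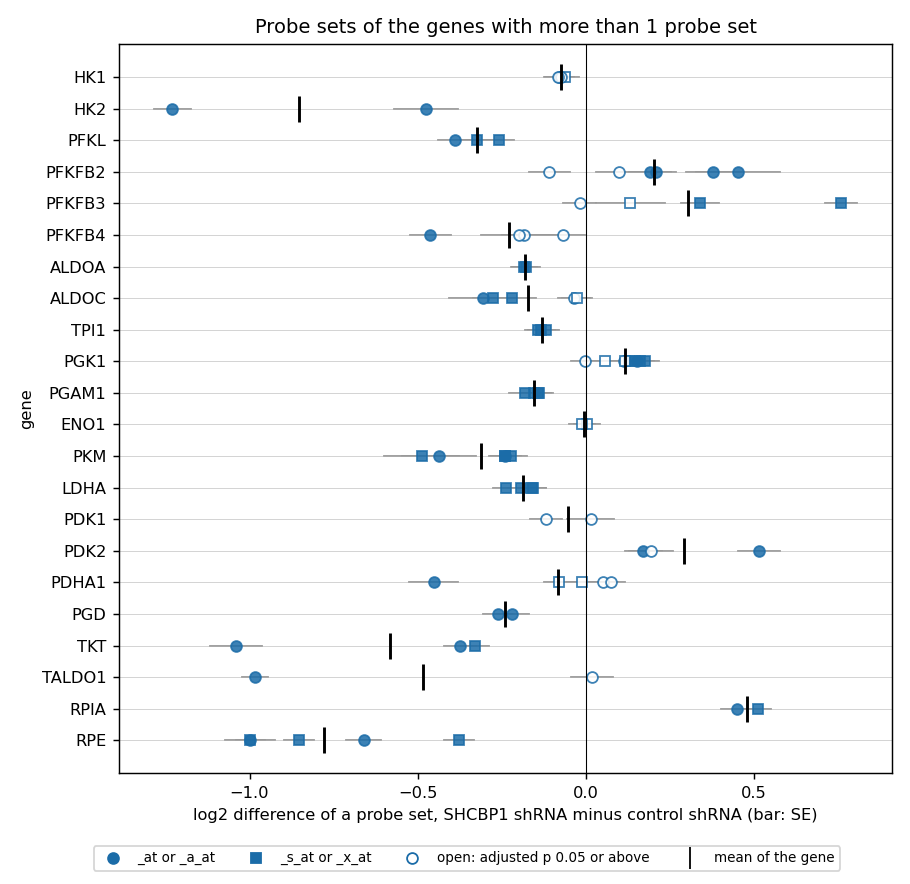
Log2 difference of each probe set for the 22 genes with more than 1 probe set, with SE (circles _at or _a_at, squares _s_at or _x_at, open symbols not called over all probe sets, black bars the gene's mean). Probe sets lie close together for ALDOA, TPI1, PGAM1, ENO1 and HK1 and far apart for TALDO1 (-0.98 and 0.02), PFKFB3 and HK2. No gene has called probe sets on both sides of 0, and spike-in scaling would move all points left by 0.43.

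Of the 91 probe sets of the 31 genes, 62 were called when each was tested on its own, 45 lower and 17 higher, against 38.4% of all probe sets that name 1 gene. In 0 of the 22 genes with several probe sets were some called higher and others lower. For 9 genes the value rests on 1 probe set: GPI, PFKM, PFKP, GAPDH, ENO2, LDHB, PDK3, PDHB and PGLS. In 7 genes every probe set ends in _s_at or _x_at, and these genes are absent when such probe sets are left out.

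Related enzymes were compared with each other within arrays, which removes any shift common to all genes of an array, spike-in scaling included. The 14 pairs were compared by a two-sided exact permutation test over the 6 arrays, which cannot go below p = 0.1 for 3 arrays against 3. In 10 pairs the groups did not overlap, and each of these reached that smallest p (0.14 after Benjamini-Hochberg adjustment over the 14 pairs), so none passed 0.05. As single genes, 50.0% of all genes had groups that did not overlap, and no such share was computed for other pairs. The pairs were chosen with earlier results of these data known. RPIA and RPE differed most, by 1.26 log2 (95% interval 1.20 to 1.31). HK1 and HK2 differed by 0.78 (0.68 to 0.87), PFKFB3 and PFKFB4 by 0.53 (0.35 to 0.71), and PDHA1 minus PDHB was -0.54 (-0.57 to -0.51). Without the _s_at and _x_at probe sets PFKFB3 was at -0.02 and PFKFB4 at -0.23, so these genes stood closer together. All intervals of pairs hold the spread among arrays, not that among the probe sets of a gene. ENO1 minus ENO2 was -0.30 (-0.51 to -0.10) and PDK1 minus PDK2 was -0.35 (-0.59 to -0.10).

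Within phosphofructokinase, the response of PFKP was lower than that of PFKL by 0.41 (0.32 to 0.51) and than that of PFKM by 0.35 (0.21 to 0.50). PFKL and PFKM were 0.06 apart, with an interval of -0.04 to 0.15 that includes 0. For ALDOA and ALDOC the difference was -0.01 (-0.13 to 0.11), and for PDK1 and PDK3 it was 0.04 (-0.24 to 0.32). LDHA fell less than LDHB by 0.16 (0.12 to 0.21). TKT minus TALDO1 was -0.10 (-0.17 to -0.02), and the difference between PFKFB2 and PFKFB3 was -0.10 (-0.25 to 0.05). With the median of probe sets TKT was at -0.38 and TALDO1 at -0.48. Which of TKT and TALDO1 fell further thus depends on how probe sets are joined.

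**Figure D4:**
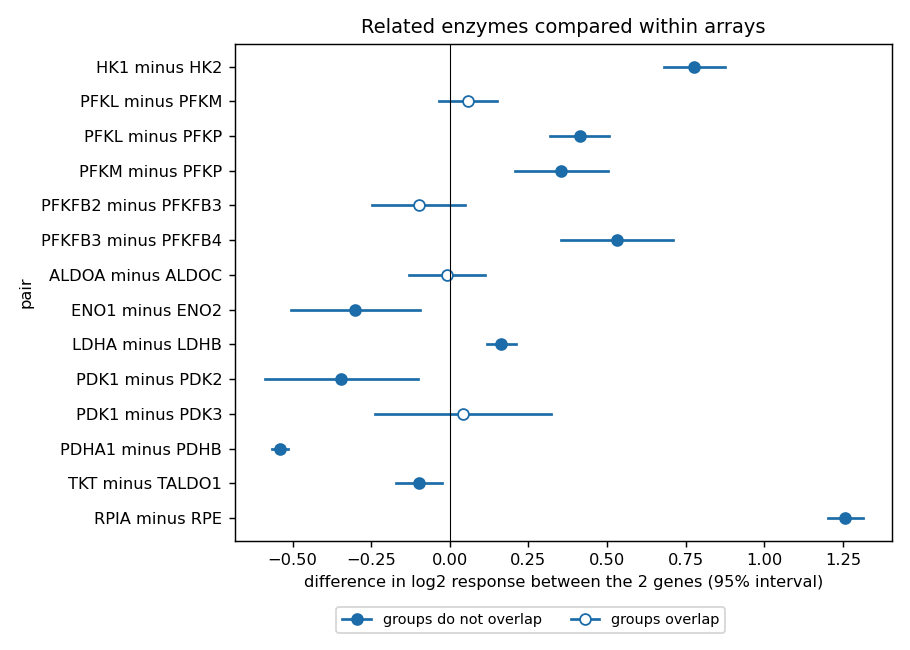
Difference in log2 response (SHCBP1 shRNA minus control shRNA) between the genes of 14 pairs, taken within each array, with 95% intervals from the spread of 3 arrays per group (open points mark pairs whose groups overlap). RPIA minus RPE lies furthest from 0 at 1.26, and PFKL minus PFKM, PFKFB2 minus PFKFB3, ALDOA minus ALDOC and PDK1 minus PDK3 include 0. These differences do not change with scaling of the arrays, but they rest on means of probe sets, whose spread the intervals leave out.

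The neighbouring genes of the pathways were called about as often as any genes. A list of 54 genes was made for steps that lead in or out: glucose uptake, other isoforms, gluconeogenesis, glycogen entry, pyruvate import and ribose use. Of 48 analysed, 11 rose and 8 fell, so 39.6% were called, near the 41.0% over all genes, and the median was 0.00 (0 rose and 44 fell with spike-in scaling). The largest changes were falls. PCK2, the mitochondrial PEP carboxykinase, read 0.82, 0.77 and 0.76 in the control arrays against -0.80, -0.89 and -0.81 in the SHCBP1 shRNA arrays (-1.62 ± 0.04, SE; adjusted p = 4.20e-07). SLC2A1, the glucose transporter GLUT1, read 0.54, 0.50 and 0.53 against -0.50, -0.67 and -0.65 (-1.13 ± 0.05, SE; adjusted p = 3.43e-06). Earlier values of PCK2 and SLC2A1 were known when the list was made.

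The phosphoglucomutase genes, which link glucose phosphate with glycogen and ribose phosphate, both fell. PGM2 read 0.68, 0.66 and 0.71 against -0.68, -0.68 and -0.73 (-1.38 ± 0.03, SE; adjusted p = 4.20e-07), and PGM1 read 0.45, 0.40 and 0.46 against -0.46, -0.45 and -0.46 (-0.89 ± 0.03, SE; adjusted p = 1.58e-06). The fall of PGM2 exceeded that of HK2, and that of PGM1 was close to it. Among rises, MPC2, a subunit of the mitochondrial pyruvate carrier, read -0.31, -0.32 and -0.23 against 0.27, 0.27 and 0.24 (0.54 ± 0.04, SE; adjusted p = 2.12e-05). PRPS1, which turns ribose phosphate into the precursor of nucleotides, read -0.23, -0.23 and -0.22 against 0.22, 0.25 and 0.33 (0.49 ± 0.04, SE; adjusted p = 4.16e-05).

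Around PDHB, other genes of the pyruvate dehydrogenase complex were looked up after their values were seen. The shared subunit gene DLD rose by 0.24 ± 0.03 (SE; adjusted p = 0.000537), PDHX, which anchors it, by 0.23 ± 0.04 (adjusted p = 0.0013), and PDP1, the phosphatase that reactivates the complex, by 0.29 ± 0.04 (adjusted p = 0.000707). DLAT, its core subunit gene, was at -0.09 ± 0.04 (adjusted p = 0.122). Also on the list, PDPR, PDHA2 and PDK4 were at 0.03, 0.02 and -0.01 and not called (adjusted p = 0.722, 0.826 and 0.867). MPC1, partner of MPC2 in the carrier, was at 0.03 ± 0.05 (adjusted p = 0.742). With spike-in scaling none of the neighbouring genes, these included, was called higher.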

How the data were processed

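The authors deposited 1 log2 value per probe set and array, made with RMA (per the submitters' processing notes, with no version). No source used here gives the log base, or the step that centred every probe set on its median of 0, and log2 was taken as the scale of RMA. Of 49395 probe sets, 44988 name 1 gene, and 102 controls, 1832 with several symbols and 2473 unnamed were left out. Probe sets were averaged per gene (18132 genes) with no filter on dim genes, which centred values do not allow. Groups were compared unpaired by limma 3.58.1 (lmFit, eBayes; R 4.3.3). The fit was first run on simulated data in which all genes had the same spread and few genes changed. Here spreads differ and 41.0% of genes were called, so that run does not measure error rates in these data. P-values were adjusted over all genes by the Benjamini-Hochberg method and called at 0.05. Array number limits precision. No array repeated another: the SD of the difference between 2 arrays was 0.105 to 0.111 within a group. The genes, lists, pairs and motifs were chosen with earlier results of these data known. Every gene analysed is named; of the neighbouring genes, the 6 called with the largest change, and those marked otherwise.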

Additional observations from a re-analysis of the deposited data

Results flagged for a closer look

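A probe set outside the gene means carried a signal above its level in the control arrays. It is annotated to both ENO1 and TMEM11, read -0.07, -0.17 and -0.18 in the control arrays against 0.08, 0.07 and 0.08 in the SHCBP1 shRNA arrays, and was higher by 0.22 ± 0.05 log2 (SE; limma's Benjamini-Hochberg adjusted p = 0.00643 over all probe sets). The 2 probe sets that name ENO1 alone were at -0.01 and 0.00. A further probe set shared by ENO1 and EDARADD was also at 0.00.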

How the results depend on the processing

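Spike-in scaling changed most: it gave 0 higher among the 31 genes, 0 higher and 44 lower among the neighbouring genes, 16710 genes called in all against 7440, and a median of -0.59. It turned PFKFB2 to -0.23, PFKFB3 to -0.13, GAPDH to -0.41, PGK1 to -0.32, ENO2 to -0.14 and PDK2 to -0.14. HK1, ENO1, GAPDH, PDK1, PDK3 and PDHA1, not called before, gained a lower call there (-0.53 to -0.41). PFKFB2 and PGK1 went from called higher to called lower (adjusted p = 0.00392 and 0.000303). PFKFB3, ENO2, PDK2, PDHB and RPIA lost their higher call and were not called. That scaling subtracts 0.43 from every gene by construction. With the _s_at and _x_at probe sets left out, 24 of the 31 genes were left, 5 higher and 13 lower, with a median of -0.20. In all, 6315 genes were called there. PFKFB3 turned there to -0.0182 and PGK1 lost its call (0.09, adjusted p = 0.0973). Array weights, robust moderation and the median of probe sets left each of the 31 genes on its side of the threshold, in its direction. So did arrays centred on their median and a quantile normalization of the centred values. That normalization acts on deviations and not on expression levels, and it put SHCBP1 at -1.38 against -1.54. With the median of probe sets TKT was at -0.38 against -0.58. No gene of the 31 changed side or direction on adding the GAPDH control probe sets, an alternative chosen after seeing the data. Each probe set on its own gave 7 genes with a higher and 19 with a lower probe set, beside 8594 of all genes with a called probe set. Leaving out 1 array gave 6 to 7 higher and 17 to 18 lower, with 6655 to 6840 genes called in all. Over these fits PDK3, never called, ran from -0.15 to 0.02. With the replicate number as a block, 6 rose and 18 fell of the 31, with 7092 genes called, and PGK1 was lost. Arrays sharing a number share only that: the correlations of their deviations were 0.018, -0.0462 and 0.0674, and 3 of 6 arrays correlated best with their own number. A filter on dim genes was not run.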
